A study of Mus musculus with 7 samples.

Results

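Of 13094 protein-coding genes on chromosomes 1 to 19 with a total of at least 10 counts in every mouse, 23 genes (0.176%) had nearly all of their allele-assigned counts on 1 parental allele and belonged to none of the known imprinted, ribosomal protein, histone or H2 genes. They were chosen from the measured counts themselves. A gene was taken when its CAST counts, summed over 7 mice, made up less than 5% or more than 95% of its summed total. Their CAST shares therefore describe the choice, and no test between their alleles is given as support. Left out were 13 known imprinted genes and 4 genes with symbols starting with Rpl, Rps or Hist that also passed the threshold.

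RNA was sequenced from growth plates of 7 untreated male F1 mice, 21 days of age, from a cross labelled C57BL/6JxCAST/EiJ. Each mouse carried 1 B6 (C57BL/6J) and 1 CAST (CAST/EiJ) copy of every autosome, so both alleles of a gene were read in the same tissue of the same animal. The 7 mice formed a single group with no other condition. All mice came from the same cross, so strain and parent of origin cannot be told apart. Among the imprinted genes left out, the paternally expressed Peg3 had 99.4% of its counts on CAST and the maternally expressed Cdkn1c had 2.64%.

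Totals ran from 14098019 counts in mouse 7 to 37849667 in mouse 5, with a median of 27603769. These totals exceeded the average number of read pairs that the labels state per sample, so 1 count may not stand for 1 sequenced pair. The tissue was homogenised whole, although its label names chondrocytes. All 8 chondrocyte markers had counts in every mouse, with a summed level of 54982 to 91915 CPM (counts scaled to a library of 1000000), as did 4 of 4 osteoblast markers with 35352 to 64810 CPM and 3 of 3 neutrophil markers with 887 to 1894 CPM. None of the markers examined was at 0 in any mouse. In such bulk tissue, fewer cells of a type and less RNA per cell cannot be told apart.

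A gene can show counts on 1 allele in an F1 hybrid for several reasons. Its other allele may be silent, as at imprinted genes, or may carry a regulatory or structural change in that strain. The counts can also reflect how reads were placed. Many mammalian genes have close copies, made by tandem duplication or by reverse transcription of an mRNA, which leaves a processed copy without introns elsewhere in the genome. A short read from such a family fits several genes and 2 alleles of each. EMASE, the program behind these counts, divides a read among all the gene and allele combinations it fits equally well. A gene total that is not a whole number therefore marks reads divided between genes, while a read that fits both alleles of 1 gene leaves the total whole. Which of these applied to a gene was not tested.

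The sequences of 5 pairs show how little separates some of the 23 genes from similar genes, in 4 pairs the closest copy and for Ear1 the related gene Ear2, which held more counts than its closest copy. They are 30-base stretches of coding sequence from the annotated B6 reference (GENCODE M21, GRCm38/mm10), given 5′ to 3′ on the gene's own strand, and capitals mark the bases that differ within a pair. The first pair is from osteocalcin genes, which encode a protein of bone matrix, at chr3:88378620-88378649 (minus strand, Bglap2) and chr3:88384385-88384414 (minus strand, Bglap), where the coding sequences differed at 4 of 285 bases.
Bglap2: tgaggaccCtctCtctgctcactctgctgG
Bglap: tgaggaccAtctTtctgctcactctgctgA
AK157302, an intronless gene, lay at chr13:21495312-21495341 (plus strand) in this stretch and Isca1, a gene for iron-sulfur cluster assembly, at chr13:59769669-59769698 (minus strand), with differences at 2 of 387 coding bases.
AK157302: gcgtcgttggtccgcgccaccgtgTgggcC
Isca1: gcgtcgttggtccgcgccaccgtgCgggcT
Mrgpra2a and Mrgpra2b, Mas-related G protein-coupled receptors, were compared at chr7:47427158-47427187 and chr7:47464632-47464661 (both minus strand) and differed at 2 of 993 coding bases.
Mrgpra2a: atctttcacttgtgctttaacaccattatA
Mrgpra2b: atctttcacttgtgctttaacaccattatG
The eosinophil-associated ribonucleases Ear1, at chr14:43819240-43819269 (minus strand), and Ear2, at chr14:44103027-44103056 (plus strand), differed at 20 of 465 aligned coding bases.
Ear1: taatgttgaaatgATgcgtattaacaggGC
Ear2: taatgttgaaatgCAgcgtattaacaggTT
The lysozymes Lyz1, at chr10:117292707-117292736, and Lyz2, at chr10:117282111-117282140 (both minus strand), differed at 22 of 444 coding bases.
Lyz1: atggAtggctacCGtggTgtcaAGctggcT
Lyz2: atggCtggctacTAtggAgtcaGCctggcC
These stretches hold more differences than most of the coding sequence around them, since they were taken where the pairs differ. No CAST sequence was used, so differences between the strains at these bases are not shown.

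Of the 23 genes, 13 had their counts on B6 and 10 on CAST. On the B6 side were, in order of summed CAST share, Nfatc3, Tmem45b, Eno1b, Bglap2, Gm3839, Ly6d, Wfdc17, Olfr613, Lefty1, Zfp488, Ear1, Cacna1i and Slc7a14, with shares from 0.00063% to 4.76%. On the CAST side were Mrgpra2a, Dnah11, Gm14226, Gm10800, Gm17555, Hmga1b, Lyz1, Rnase2a, Pxt1 and AK157302, with shares from 96.2% to 99.9998%. The 13094 genes had a median share of 50% and quartiles of 47.0% and 52.6%. The 23 genes lay on 14 chromosomes, 4 of them (Ear1, Gm3839, Rnase2a and Zfp488) on chromosome 14. The threshold was passed in every mouse taken alone by 14 genes, while the other 9 passed it in the sum but in only 3 to 6 of the mice.

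Just inside the lower threshold lay Slc7a14 with 4.76%, Cacna1i with 4.02% and Ear1 with 3.75%, and just outside it Fam169b with 5.74%, Ms4a7 with 6.25% and Cd209f with 6.94%. At the upper threshold Mrgpra2a and Dnah11, each with 96.2%, and Gm14226 with 97.3% were inside, while Cd3d with 94.7%, Tpsab1 with 94.6% and Gm38393 with 94.4% were outside. The edge of the list therefore ran through a continuous range of shares.

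**Figure D1:**
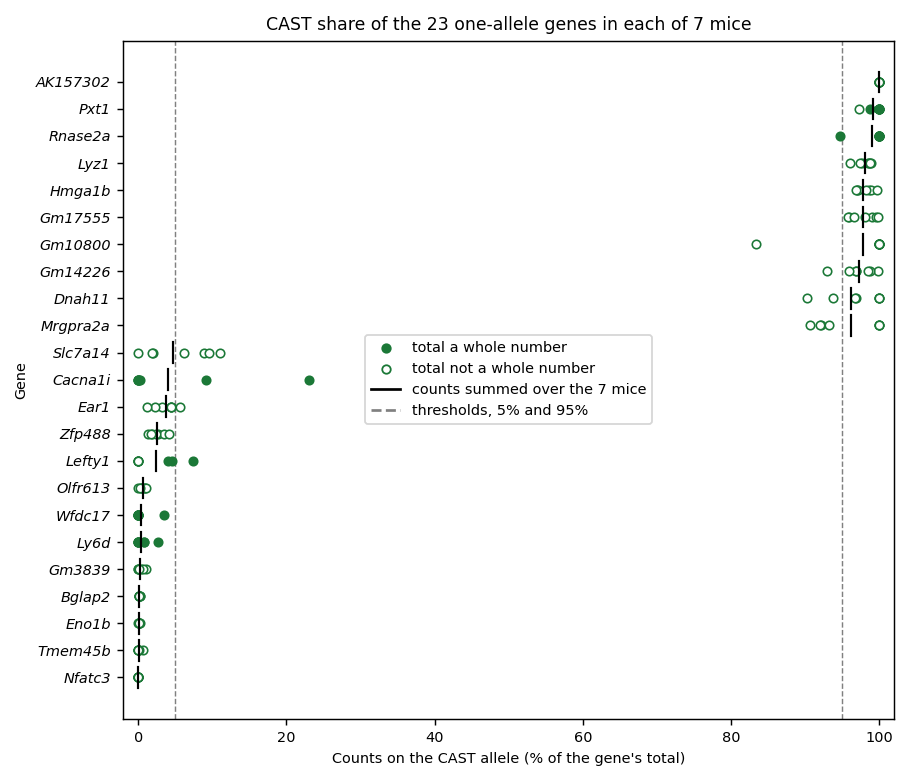
CAST share (x axis, % of a gene's counts) of the 23 genes (y axis) in each of the 7 mice; filled points are mice in which the gene's total was a whole number, open points those in which it was not, black bars the share of the summed counts, and dashed lines the 5% and 95% thresholds. Most points lie at the edges of the plot, while Cacna1i in mouse 3 lies at 23.1% and Gm10800 in mouse 8 at 83.4%.

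In the comparison of CAST with B6 counts over all 21805 tested genes, made with edgeR's likelihood-ratio test, 7111 genes (32.6%) had an FDR below 0.20. The called share was 32.9% of the 15284 tested coding autosomal genes and 33.3% of the 13094. All 23 genes were among the called genes, 10 of them higher on CAST (15.4% of all tested genes) and 13 higher on B6 (17.2%). Nothing is read from this count, because the choice used the same contrast.

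Properties other than the allele share set the 23 genes beside all 13094 genes, which include the 23 and the genes barred from the list as imprinted or by symbol. Totals were not whole in at least 1 mouse for 19 of the 23 genes (82.6%), against 46.1% of the 13094 genes, and in all 7 mice for 16. The 4 genes with whole totals in every mouse were Wfdc17, Rnase2a, Ly6d and Cacna1i. Annotated transcripts were also cut into every possible window of 75 bases, the length of a read. At least 1 window recurred exactly in a transcript of another gene for 19 of the 23 genes, against 43.2% of the 13094, and the median share of such windows was 9.32% against 0.00%. The 4 genes without a recurring window were the same 4 genes that had whole totals.

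More than 50% of the windows recurred elsewhere for Hmga1b (84.0%), Mrgpra2a (80.4%), Eno1b (79.3%), Bglap2 (73.3%) and AK157302 (56.0%), whereas this held for 2.28% of the 13094 genes. Hmga1b, Gm17555 and AK157302 had a single exon, 3 of 23, against 2.31% of the 13094 genes. Summed totals were low for most of the list, with a median of 377 counts against 2928, and 17 of the 23 genes lay below the median of the 13094 genes. These shares describe the list and were not tested, and genes with low totals reach extreme shares more easily through counting error.

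**Figure D2:**
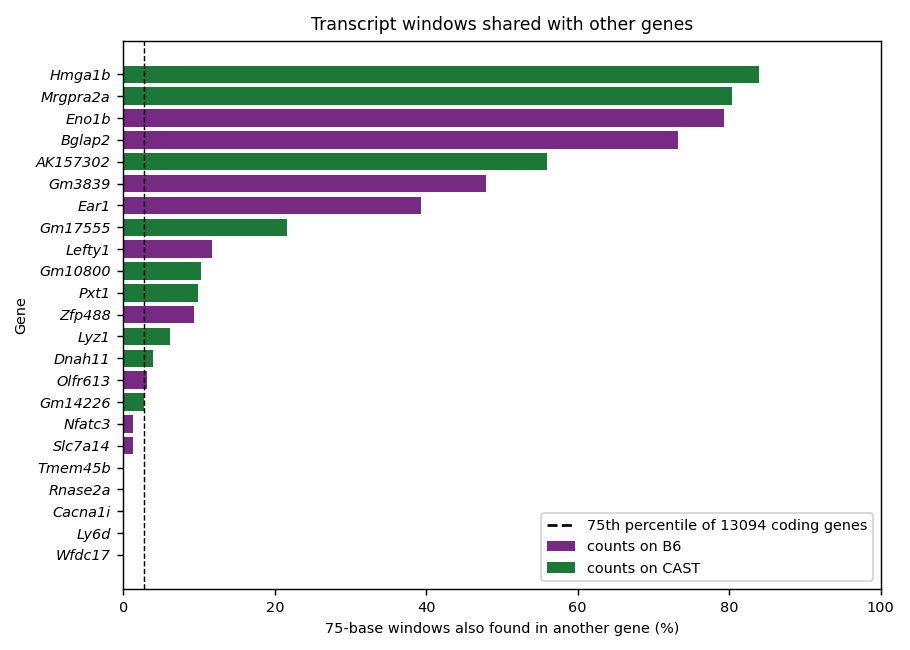
Share of each gene's 75-base transcript windows that recur exactly in another gene (x axis, %) for the 23 genes (y axis), coloured by the allele that held the counts; the dashed line is the 75th percentile of the 13094 coding genes, 2.70%. Hmga1b, Mrgpra2a, Eno1b, Bglap2 and AK157302 lie above 50%, and Wfdc17, Ly6d, Cacna1i and Rnase2a lie at 0.

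Bglap2, 1 of 3 osteocalcin genes in a tandem cluster on chromosome 3 (88377736 to 88378699), held the most counts of the list with 68338. Its CAST share was 0.119% in the lowest mouse, 0.162% at the median and 0.20% in the highest. CAST counts were 15.8 ± 7.78 and B6 counts 9747 ± 3299 (SD, n = 7 mice), a mean log2 ratio of CAST to B6 (with 0.5 added to each count) of -9.27 ± 0.29. All mice thus lay within a narrow band close to 0. Of its windows, 61.0% recurred in Bglap and 15.1% in Bglap3, the other genes of the cluster.

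Bglap and Bglap3 differed from Bglap2 in direction. Bglap, with 298665 counts, had a CAST share of 54.5% to 56.6% and CAST counts of 23649 ± 7630 against B6 counts of 19017 ± 6051 (log2 fold change 0.33, FDR = 0.0273, higher on CAST in 7 of 7 mice). Bglap3, with 1174 counts, had 86.7% on CAST (log2 fold change 2.74, FDR = 4.13e-43, 7 of 7 mice). Summed with Bglap, Bglap2 gave 45.1% CAST, from 43.7% to 46.6% in the mice. With all genes that shared a window with it, the sum was 45.3%. The near absence of CAST counts at Bglap2 thus went with CAST shares above 50% at both other genes, while totals of all 3 were not whole in any mouse.

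Eno1b, on chromosome 18, is a processed copy of Eno1, which encodes the glycolytic enzyme alpha-enolase. Its CAST share ran from under 0.001% in mouse 7 to 0.225% in mouse 1, with a median of 0.103%. CAST counts were 3.99 ± 2.55 and B6 counts 3607 ± 1038 (SD, n = 7), a gap that follows from the choice of the gene. The 2 coding sequences differed at 8 of 1302 bases. Of the windows of Eno1b, 69.6% recurred in Eno1 and 59.7% in Gm4735, a processed pseudogene that held 3.87% of its 578 counts on CAST.

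Eno1 itself leaned to B6, with a CAST share of 39.1% to 40.9% in the mice. Its 5077 ± 1526 CAST and 7669 ± 2267 B6 counts gave a log2 fold change of -0.58 (FDR = 0.0016, higher on B6 in 7 of 7 mice). The sum of Eno1b and Eno1 had 31.1% on CAST, further from an even split than Eno1 alone. Among 19 genes of glycolysis, 3 were higher on CAST, 3 were higher on B6 and 13 did not pass the test, a called share of 31.6% beside the 32.6% of all tested genes. The call of Eno1b followed from the choice, so nothing is read from this share. Besides Eno1 and Eno1b, the genes called were Eno2 (79.1% CAST, FDR = 7.95e-39), Aldoc (62.5%, FDR = 0.00013), Pgam1 (53.9%, FDR = 0.12) and Pgk1 (9.47%). Pgk1 lies on the X chromosome, of which male mice carry a single copy, so its call is not a comparison between alleles. Aldoa, Tpi1, Gapdh and Ldha, which encode further enzymes of the pathway, lay between 49.5% and 51.6% and did not pass the test.

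Hmga1b, a single-exon gene on chromosome 11, had the opposite allele from its parent gene. Its CAST share was 96.9%, 98.3% and 99.7% in the lowest, median and highest mouse, from 312 ± 150 CAST and 6.78 ± 5.89 B6 counts (SD, n = 7). Hmga1, which encodes an architectural protein of chromatin and lies on chromosome 17, had 29.8% to 41.6% CAST, with 340 ± 145 CAST and 607 ± 233 B6 counts (log2 fold change -0.83, FDR = 5.9e-06, higher on B6 in 7 of 7 mice). The 317 aligned coding bases held 0 differences, and 84.0% of the windows of Hmga1b were found in Hmga1. Together the 2 genes had 51.5% on CAST, with 49.2% to 52.7% in the mice. Their allele shares thus lay on opposite sides of an even split and the shares of the sum close to it.

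AK157302 and Isca1 also lay on opposite sides. AK157302 had 99.998% to 99.99998% on CAST from a total of 325 counts, and in each mouse its B6 estimate stayed far below 1 count. Isca1 had 28.2% on CAST from 5296 counts (214 ± 97.7 CAST and 543 ± 220 B6 counts, log2 fold change -1.35, FDR = 7.55e-28, higher on B6 in 7 of 7 mice). The sum, of which AK157302 was 5.78%, had 32.4% on CAST. The neighbour of AK157302 at the higher position, Gm11273, had 99.9% on CAST, but only 9.61 counts in all.

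Mrgpra2a and Mrgpra2b leaned the same way. Mrgpra2a had a CAST share of 90.7% to 99.99% with a median of 93.2%, and 4 mice lay between 90.7% and 93.2% while 3 lay above 99.9%. Mrgpra2b, with 784 counts, had 74.1% to 88.0% (log2 fold change 1.92, FDR = 1.25e-09, higher on CAST in 7 of 7 mice). In the sum the mice lay closer together, from 82.3% to 89.3%. The 3 mice with Mrgpra2a above 99.9% (mice 3, 5 and 7) had the 3 lowest shares of Mrgpra2b, all below 75%.

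Lyz1 and Lyz2, tandem genes on chromosome 10, encode lysozymes that digest bacterial cell walls, and Lyz2 is the form of macrophages and neutrophils. Lyz1 had 96.0%, 98.4% and 98.9% on CAST in the lowest, median and highest mouse, from 711 ± 283 CAST and 13.9 ± 6.35 B6 counts (SD, n = 7). Lyz2, with 95379 counts, had 50.7% to 51.7% (log2 fold change 0.09, FDR = 0.813). With the mouse as a block the same small difference passed the test (FDR = 4.05e-21), with 7 of 7 mice higher on CAST. Only 6.22% of the windows of Lyz1 recurred in Lyz2, and Lyz1 was 5.05% of the counts of the pair. The sum of both genes had 53.6% on CAST.

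Ear1 had 1.13%, 4.40% and 5.60% on CAST in the lowest, median and highest mouse, from 8.21 ± 4.50 CAST and 211 ± 40.5 B6 counts (SD, n = 7). Its windows recurred in the pseudogene Ear-ps9 (31.3%), which held only 3.29 counts, in Ear10 (9.70%) and in Ear2 (8.29%). Ear2, with 2176 counts, had 51.1% on CAST (log2 fold change 0.12, FDR = 0.835) and differed from Ear1 in this respect. Rnase2a, a further ribonuclease of the same family on chromosome 14, shared no window with another gene and was on the CAST side.

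**Figure D3:**
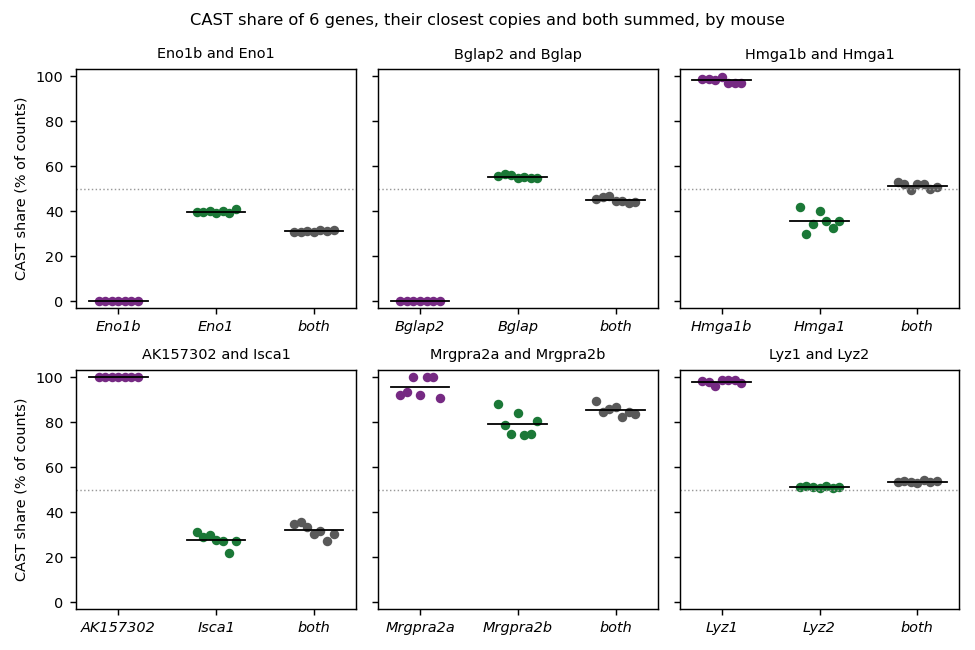
CAST share (y axis, % of counts) of 6 genes, of the closest copy of each and of both genes summed (x axis), with 1 point per mouse (n = 7) and a bar at the mean; the dotted line marks 50%. Eno1b and Bglap2 lie at the bottom and Hmga1b, AK157302, Mrgpra2a and Lyz1 near the top, with Hmga1b and Hmga1 on opposite sides of 50% and their sum between 49.2% and 52.7%.

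Over all 23 genes, 18 had a closest copy that could be tested, by shared windows or by alignment, and these made 17 different genes. Of the 17 copies, 10 were called, 5 on each allele, beside 32.6% of all tested genes. Counted by pair, 11 copies were called, 8 on the same allele as the gene of the list and 3 (Bglap, Hmga1 and Isca1) on the other. Among the 8, D10Wsu102e counted for both Olfr613 (1.63% of its windows) and Tmem45b (0.128%). Esrp2 overlaps Nfatc3 on the other strand (1.23%), and Gm12915 held 2.56% of the windows of Gm14226. Eno1 and Mrgpra2b held 69.6% and 80.4%, and the 3 on the other allele 56.0% to 84.0%. The split thus mixes close copies with short matches. A gene and its copy can share reads, so the copies are not independent of the list. One of the calls rested on few counts, that of Gm12915 (67.2 counts, FDR = 0.105), which was lost without mouse 4 (FDR = 0.341) or without mouse 7 (FDR = 0.398).

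Nfatc3, Dnah11 and Pxt1 shared windows with a gene whose exons overlap theirs, as did Ear1 with Ear-ps9 (17 bases). Nfatc3, a transcription factor activated by calcineurin, lay at 106058840 to 106130537 on chromosome 8 and its 3′ end overlapped the exons of Esrp2, a splicing factor gene on the other strand, by 219 bases. Its CAST share was 0.00031%, 0.00047% and 0.0021% in the lowest, median and highest mouse, from 992 ± 390 B6 counts and CAST estimates that summed to 0.0437 over all mice. No mouse came near a full CAST count. Esrp2, with 202 counts, had 15.5% to 44.9% on CAST (log2 fold change -0.94, FDR = 0.0208, higher on B6 in 7 of 7 mice).

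Only 1.23% of the windows of Nfatc3 lay in the overlap, so 11632 windows recurred nowhere else. Its neighbour Ddx28, an RNA helicase gene, had 57.5% on CAST (FDR = 0.195), a call lost with the quasi-likelihood test (FDR = 0.202), with DESeq2 (0.219), with the mouse as a block (0.263) and without any 1 of 6 mice (0.220 to 0.541). Both neighbours thus had counts on both alleles.

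Dnah11, which encodes a dynein heavy chain of motile cilia, overlapped Cdca7l by 642 exon bases on chromosome 12. Its CAST share was 90.3%, 96.9% and 100% in the lowest, median and highest mouse, from 51.2 ± 21.2 CAST and 2.00 ± 2.35 B6 counts (SD, n = 7). Cdca7l had 51.5% (FDR = 0.795) and the neighbour Sp4 54.0% (FDR = 0.264, and 0.175 with the mouse as a block). Mice 1 and 5 lay below 95%, with 4.26 and 6.00 B6 counts, and the other 5 above it. Pxt1, a gene of testis peroxisomes, overlapped an antisense RNA and had 99.2% on CAST from 251 counts. Libraries kept the strand of the RNA, but whether strand was used in counting is not given in the sources used here.

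A further 7 genes, Zfp488, Olfr613, Slc7a14, Tmem45b, Gm14226, Gm10800 and Gm17555, shared windows with genes of other families or with other predicted genes. Zfp488, a zinc finger repressor known from oligodendrocytes, shared 9.32% of its windows with 62 genes. It had 1.36%, 2.46% and 4.19% on CAST in the lowest, median and highest mouse, from 38.7 ± 21.3 CAST and 1489 ± 626 B6 counts (SD, n = 7). Olfr204, an odorant receptor gene that shared most windows with it, had no counts in any mouse. The neighbours Gdf10, a growth factor of the BMP family (38.3% CAST, FDR = 1.01e-07), and Anxa8, an annexin (57.1%, FDR = 0.00064), were called on opposite alleles.

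Olfr613, an odorant receptor gene on chromosome 7, shared 3.07% of its windows with 15 genes. Its CAST share ran from close to 0 in mouse 7 to 1.03% in mouse 5 with a median of 0.537%, and B6 counts were 759 ± 328. D10Wsu102e, its closest match, had whole totals and 44.5% on CAST (FDR = 0.0279). The neighbours of Olfr613, Olfr78 (59.5%, FDR = 0.261) and the beta-globin gene Hbb-bt (44.1%, FDR = 0.387), were not called. Hbb-bt was called with the mouse as a block (FDR = 4.74e-154), all 7 mice being higher on B6.

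Slc7a14, of the cationic amino acid transporter family, was the gene closest to the threshold. Its CAST share ran from close to 0 in mouse 1 to 11.1% in mouse 4, and 4 of 7 mice lay above 5%. It stood between Cldn11, a claudin of tight junctions with 74.1% on CAST (216 counts, FDR = 0.000147), and Kcnmb2, a potassium channel subunit with 98.3% (58 counts, FDR = 6.74e-15), both higher on CAST in 7 of 7 mice and both with whole totals. Slc7a14 thus lay on the other allele from both coding neighbours.

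Gm17555 and its closest match Gm21750 are predicted coding genes and both leaned to CAST. Of the windows of Gm17555, 12.9% recurred in Gm21750, 10.7% in Gm26905 (107045 counts) and 9.62% in Gm21962 (6903 counts). Gm26905 and Gm21962 had even splits and did not lean to CAST. With all genes that shared a window with Gm17555, the sum had 50.7% on CAST. Gm17555 had 95.7%, 98.1% and 99.9% in the lowest, median and highest mouse, from 317 ± 159 CAST and 6.96 ± 6.15 B6 counts (SD, n = 7), and Gm21750 had 87.2% of 2406 counts. Dtwd1 and Atp8b4, the neighbours of Gm17555, had 50.4% and 49.9% and were not called. Tmem45b, Gm14226 and Gm10800 completed this group with 196, 342 and 212 counts and shares of 0.106%, 97.3% and 97.8%. In 6 mice Gm10800 lay above 95%, and mouse 8, with 4.70 B6 counts, had 83.4%. Gm3839 (267 counts, 0.257%) shared windows with 109 genes, among them Gapdh, and Lefty1 (262 counts, 2.41%), a secreted inhibitor of Nodal signalling, shared 11.7% with Lefty2.

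Wfdc17, Ly6d, Cacna1i and Rnase2a had whole totals in every mouse, at a tolerance of 0.0001 counts, and no recurring window. Their totals thus showed no sign of reads divided between genes. A whole total cannot show this by itself, since D10Wsu102e shared windows with Olfr613 and also had whole totals. Windows were exact matches within B6 transcripts, while alignment allowed up to 3 mismatches and used both strains. Whether reads of other genes were placed at these 4 genes was not tested. Wfdc17, a small secreted protein of the whey acidic protein family made by myeloid cells, had 33.6 ± 8.21 B6 counts (SD, n = 7) on chromosome 11. In 6 mice its CAST estimate was below 0.5 counts, and in mouse 4 it was 1.03 counts, or 3.45%. Wfdc18, the most similar gene, had no counts. The neighbours of Wfdc17 were the chemokine gene Ccl3 (32.8% CAST, FDR = 0.138) and Wfdc21 (54.0%, FDR = 0.461). The call of Ccl3 was lost without mouse 1, 2 or 8 (FDR from 0.245 to 0.538), and Wfdc21 was called with the mouse as a block (FDR = 0.00902).

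Ly6d, a surface protein anchored by GPI and known from early B lymphoid and epithelial cells, had 2200 counts, the most of the genes with whole totals. Its B6 counts were 313 ± 126 and its CAST counts 1.35 ± 1.78 (SD, n = 7), and its share was below 0.001% in the lowest mouse, 0.0037% at the median and 2.70% in mouse 3. A wide gap between the alleles follows from the choice of the gene. B lineage markers were low in the same tissue, with 3 markers summing to 80.0 to 142 CPM. On either side, Lynx1 had 47.7% (FDR = 0.336, and 0.181 with the mouse as a block) and Ly6k exactly 50% of 169 counts in every mouse, the value that arises when no read separates the alleles.

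Rnase2a, an eosinophil ribonuclease, had 51.2 ± 14.9 CAST and 0.506 ± 1.31 B6 counts (SD, n = 7). Its CAST share was 94.7% in mouse 3, with 3.48 B6 counts, and at least 99.9% in the other 6 mice. The B6 allele thus had a full count in only 1 mouse. Ear2 was its most similar gene, with 81.4% identity over 695 aligned bases, and had an even split. Rnase6, its neighbour, had 46.4% (FDR = 0.751).

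Cacna1i, the pore-forming subunit of a T-type calcium channel, had the fewest counts of the list, 179. Its CAST share was 0.0012%, 0.066% and 23.1% in the lowest, median and highest mouse, from 24.5 ± 12.6 B6 and 1.03 ± 1.79 CAST counts (SD, n = 7). In 5 mice it lay below 1%, in mouse 1 at 9.09% and in mouse 3 at 23.1%, so 2 of 7 mice were above 5%. Cacna1h, another T-type channel gene, had 51.7% (FDR = 0.731). Rps19bp1 at the lower position had 56.6% (FDR = 0.0469) and Grap2 at the higher one 56.5% (FDR = 0.342, and 0.0558 with the mouse as a block).

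The nearest tested coding gene on each side gave 46 different neighbours. Of these, 19 were called (41.3%), beside 32.6% of all tested genes, 9 on the same allele as the gene of the list and 10 on the other. Some neighbours share windows with the gene of the list. Among them Bglap, Bglap3, Mrgpra2b and Esrp2 were called, and Lyz2, Cdca7l and Ear10 were not. Such genes can share reads, so the neighbours are not independent of the list. The median CAST share of the neighbours was 52.3%, and 32 of the 46 lay between 40% and 60%. Totals were below 1 count for 3 of the neighbours. Leaving out 1 mouse brought some neighbours past the test, Lynx1 (FDR = 0.154), Olfr78 (0.198) and Sp4 (0.0921) without mouse 3, Sp4 without mouse 4 (0.187) and Grap2 without mouse 7 (0.0921). Sema6a passed without mouse 2 (0.114), and Dtwd2 (0.149) and B230118H07Rik (0.122) without mouse 8. The call of 4930539E08Rik (FDR = 0.152) was lost without mouse 2, 3 or 7 (0.390 to 0.428). It was also lost with the quasi-likelihood test (0.222), with DESeq2 (0.224) and with the block (0.255). The extreme shares did not extend to most of the genes beside them.

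**Figure D4:**
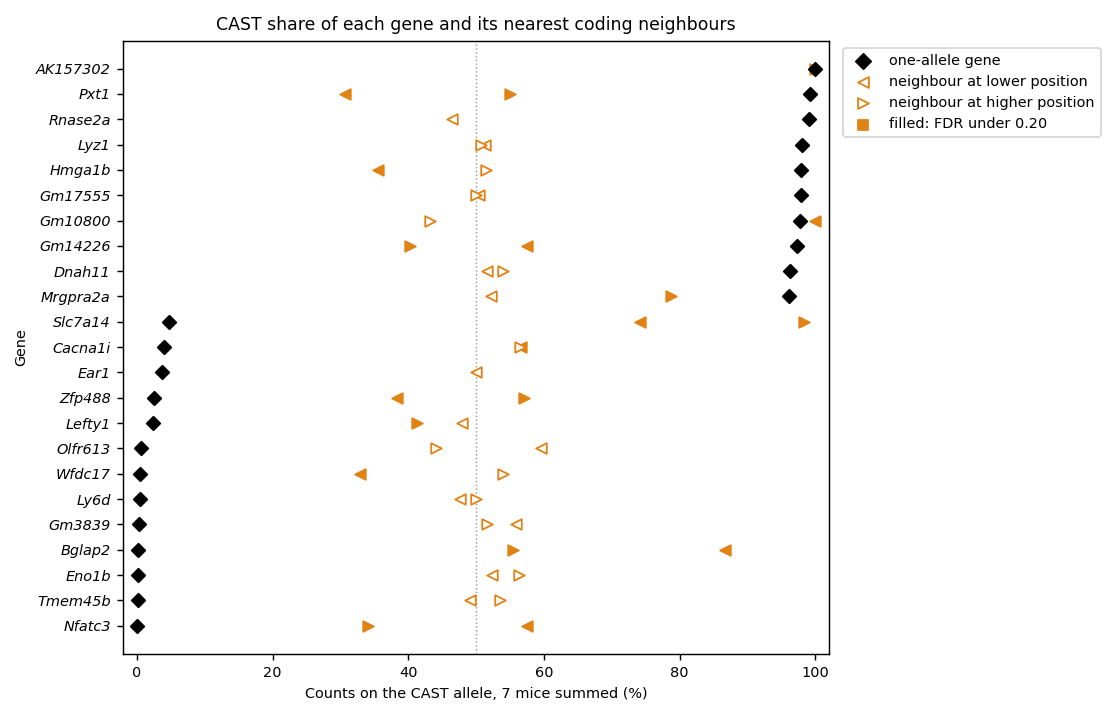
CAST share (x axis, % of counts summed over 7 mice) of each of the 23 genes (black diamonds) and of the nearest tested coding gene at the lower (left triangles) and higher position (right triangles); filled triangles had an FDR under 0.20, the dotted line marks 50%, and 3 neighbours with totals below 1 count are not drawn. The neighbours of Slc7a14 lie at 74.1% and 98.3%, opposite to the gene itself.

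Totals of both alleles were also compared between mice after scaling to library size. The highest mouse exceeded the lowest by 1.43 times for Wfdc17, 1.46 times for Nfatc3, 1.56 times for Bglap2 and 1.60 times for Eno1b, and by 3.51 times for Ly6d and 3.26 times for AK157302. The osteocalcin gene Bglap2 ran from 303 CPM in mouse 2 to 474 CPM in mouse 8. Ear1, Lyz1 and Ly6d were highest in mouse 7, the library with the lowest total, with 13.7, 36.2 and 20.4 CPM, and Rnase2a and Wfdc17 were highest in mouse 8. The B lineage markers were lowest in mouse 3 (80.0 CPM) and highest in mouse 7 (142 CPM), the mice in which Ly6d was lowest (5.80 CPM) and highest, while neutrophil markers were highest in mouse 5. Whether cell makeup set these totals was not tested.

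**Figure D5:**
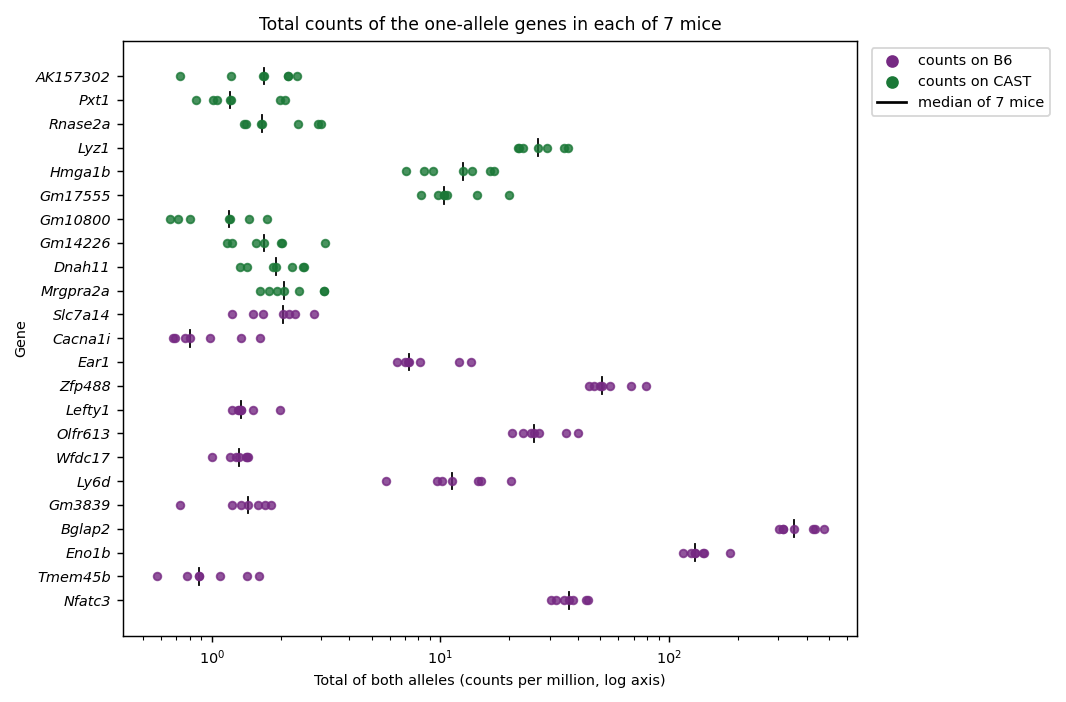
Total of both alleles (x axis in CPM, log scale) of the 23 genes (y axis) in each of 7 mice, coloured by the allele that held the counts, with black bars at the median. Within a gene the mice span 1.43 to 3.51 times; levels are not scaled by gene length and do not compare genes.

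Another 4 lists of genes were read in the same test. Of 92 tested known imprinted genes, 31 were higher on CAST and 27 higher on B6 (63.0%), with a median log2 fold change of 0.01. Of 36 housekeeping genes known for many processed copies, 7 were higher on CAST and 4 on B6 (30.6%). Nucleotide-sensing and interferon genes gave 9 and 8 of 31 (54.8%), and metabolic genes known to vary between strains 10 and 4 of 18 (77.8%). Over all tested genes, 32.6% were called. The median log2 fold changes of the last 3 lists were 0.03, 0.02 and 0.37, and that of all tested genes was 0.01. None of the 23 genes was in any of these lists, and for the imprinted list this followed from the choice.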

How the data were processed

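Growth plates of 7 male F1 mice were analysed as 7 replicates of 1 condition, numbered as in the labels. The authors used Bowtie, with up to 3 mismatches, against transcripts of both strains (mm10), handling lanes and read ends separately, and deposited raw EMASE estimated counts per gene and allele, in which fractions occur. Whether read ends or lanes are summed in these counts is not given in the sources used here. The number of reads that separate the alleles was not used here, so shares carry no counting interval.

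Gene classes, positions and transcripts came from GENCODE M21 (GRCm38/mm10), which held 42462 of 43346 identifiers. Members and gene lists were chosen with earlier results of these data known. A total was called whole within 0.0001. Windows of 75 bases were compared exactly on both strands; copies without a shared window were sought with blastn 2.17.0. Members' values were given in full for genes with whole totals, for the 12 others with the highest totals and for genes whose copy was called on the other allele; remaining copies were named after their values were seen, and so were the groups by shared sequence.

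Counts were rounded and tested with edgeR 4.0.16 (glmFit and glmLRT, TMM factors) in genes above 0 in every mouse, with Benjamini-Hochberg FDR over all 21805 genes. CAST and B6 counts of a mouse share a library, which pairs them; the mouse as a block was an alternative, as were edgeR's quasi-likelihood fit, DESeq2 1.42.0, 1 library size per mouse, other filters, thresholds and pseudocounts and each mouse left out.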

Additional observations from a re-analysis of the deposited data

Results flagged for a closer look

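In each gene of the list and each tested copy the mouse farthest from the others was examined with Dixon's criterion, and 5 of 61 sets of values held such a mouse, beside 3.05 that chance alone would give at 1 in 20. Mouse 4 had 184.5 CPM of Eno1b, above the 115.0 to 142.7 CPM of the other mice. Mouse 8 had 1.98 CPM of Lefty1, above 1.23 to 1.52. The log2 ratio of CAST to B6 (0.5 added to each count) of Rnase2a was 3.98 in mouse 3, below 5.88 to 7.16, and that of Isca1, the copy of AK157302, was -1.82 in mouse 7, below -1.43 to -1.13. For Lefty2, the copy of Lefty1, it was -2.84 in mouse 3, below 0.00 to 1.92, from 9.11 counts over all mice.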

How the results depend on the processing

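The number of genes on the list depended on the limits. It was 12 with shares below 2% or above 98%, 42 with 10% and 90%, 10 with totals of at least 50, 130 with any total above 0, 14 when every mouse had to pass and 4 when only whole totals were allowed. With totals of at least 5 it was 32, and with the mean of the mice's shares 23, of which 22 were on the list. Leaving out each mouse gave 23 to 27 genes. Slc7a14 left the list without mouse 1, 2 or 3, and Cacna1i and Mrgpra2a without mouse 5. Log2 ratios kept their direction at pseudocounts of 0.1 and 1, while 15 of 46 moved by more than their SD.

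Over the 7 fits with other tools, scalings, filters or the block, 5602 to 9315 genes were called, 9315 of them in the replicate block fit. The 23 genes were called in each fit, copies ranged from 8 to 11 and neighbours from 13 to 26, the latter with the block, and none of these counts or log2 ratios reversed. One of these, chosen after seeing the data, set estimates of at most 1e-06 to 0 and gave 6959 of 20034 genes. The block changed the call of 1 copy, Lyz2, and made 26 of 46 neighbours called in place of 19. In the same fit, calls over all 21805 tested genes rose from 7111 to 9315. With the strictest count limit, 8 of 13 tested copies, 13 of 33 tested neighbours and 5602 of 15111 genes were called. Without a mouse, Lefty2 was called once (without mouse 3, FDR = 0.196). Depth limits genes with few counts, such as Cacna1i.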
